A study of Mus musculus with 2 samples.

Results

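Cathepsins are the proteases of the lysosome, and cystatins are small proteins that block the cysteine cathepsins. The 10 genes described here were chosen by name and matched by gene ID. They are the 8 cathepsins Ctsa, Ctsb, Ctsc, Ctsd, Ctsh, Ctsl, Ctss and Ctsz and the 2 cystatins Cst3 and Cstb, of 43346 mouse gene IDs in the tables. Both libraries came from the thymus of newborn B6NCrl mice on postnatal day 0, 1 from pup 6 (replicate 1) and 1 from pup 7 (replicate 2) of a Charles River female aged 6 months and 10 days, with no allele or agent given in the labels. Each was made from 13 pg of RNA longer than 200 nt, the amount that the labels set equal to 1 cell, although the RNA was drawn from whole tissue. The labels list 1 donor for both pups, so each SD below holds pup, RNA handling and library together. Mouse genes received 25999043 expected counts (estimated read counts that need not be whole) in replicate 1 and 31902773 in replicate 2. All 12 genes of a thymocyte marker list, a check of the tissue label, were read at 1 or more counts in both libraries, which is what "read" means below. Pairs of values given without a name are for replicate 1 and then replicate 2.

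Cysteine cathepsins share a papain-like fold in which a cysteine attacks the peptide bond. Cathepsin D uses aspartates and cathepsin A a serine for the same step. In the thymus, cathepsin L of cortical epithelial cells and cathepsin S of dendritic cells and macrophages are known for trimming the invariant chain that occupies MHC class II molecules. Lysosomal proteolysis in these cells shapes the peptides on which CD4 T cells are selected.

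The coding stretch around the active-site cysteine is shown for the 6 cysteine cathepsins, because it is what makes them 1 family and because some of the transcripts read here lack it. The 30 bases were read from GENCODE M21 transcript sequences on GRCm38, run 5′ to 3′ on the coding strand, and carry the cysteine codon in capitals.
Ctsl: cagggccagtgcgggtctTGTtgggcgttt
Ctsb: cagggctcctgcggctctTGTtgggcattt
Ctss: cagggttcttgtggtgccTGCtgggctttc
Ctsh: cagggggcctgtggcagcTGCtggactttc
Ctsz: ccacagtactgtggttccTGCtgggcccac
Ctsc: caagaatcttgtggaagcTGCtactcattt
Of the 30 positions, 9 were identical in all 6 genes. Ctsb matched Ctsl at 25 bases, Ctss at 19, Ctsh at 17, Ctsz at 15 and Ctsc at 14. The Ctsl stretch lies at chr13:64367066-64367862 on the minus strand and joins exons 4 and 5 of Ctsl-201, so its genomic span holds an intron. Those of Ctsb (chr14:63135699-63136412, plus strand), Ctss (chr3:95543160-95545359, plus strand), Ctsh (chr9:90064255-90064533, plus strand) and Ctsc (chr7:88302297-88308038, plus strand) also join neighbouring exons, whereas that of Ctsz (chr2:174438187-174438216, minus strand) lies within exon 2.

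The cystatins are shown by the loop that enters the active-site cleft of a cysteine cathepsin, with its codons in capitals.
Cst3: cgtaagCAGCTCGTGGCTGGAgtgaactat
Cstb: aagagaCAGATAGTGGCTGGCaccaacctc
The pair were identical at 16 of 30 bases. The Cst3 stretch lies at chr2:148872910-148875161 on the minus strand and joins exons 1 and 2, and the Cstb stretch lies at chr10:78426990-78427019 on the plus strand within exon 2.

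Ctsl was the most abundant of the 10 genes in both pups. This cathepsin L gene, an endopeptidase (ENSMUSG00000021477, chromosome 13, 64359337 to 64370890, minus strand), had 101721 counts in replicate 1 and 150156 in replicate 2. Its level was 2659 TPM in replicate 1 and 3474 TPM in replicate 2 (3066 ± 576, SD, n = 2), where TPM is transcripts per 1000000, a count corrected for transcript length and for the library total, here rescaled over mouse genes. Ctsl ranked 26th and 14th among 21474 protein-coding genes in replicates 1 and 2. Its share of the summed TPM of the 8 cathepsins was 62.8% in replicate 1 and 63.2% in replicate 2 (63.0% ± 0.246). The other 7 cathepsins together stood at 1574 and 2025 TPM, so Ctsl exceeded their sum 1.69-fold in replicate 1 and 1.72-fold in replicate 2. The 8 cathepsins summed to 4233 TPM in replicate 1 and 5498 TPM in replicate 2 (4866 ± 895).

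**Figure D1:**
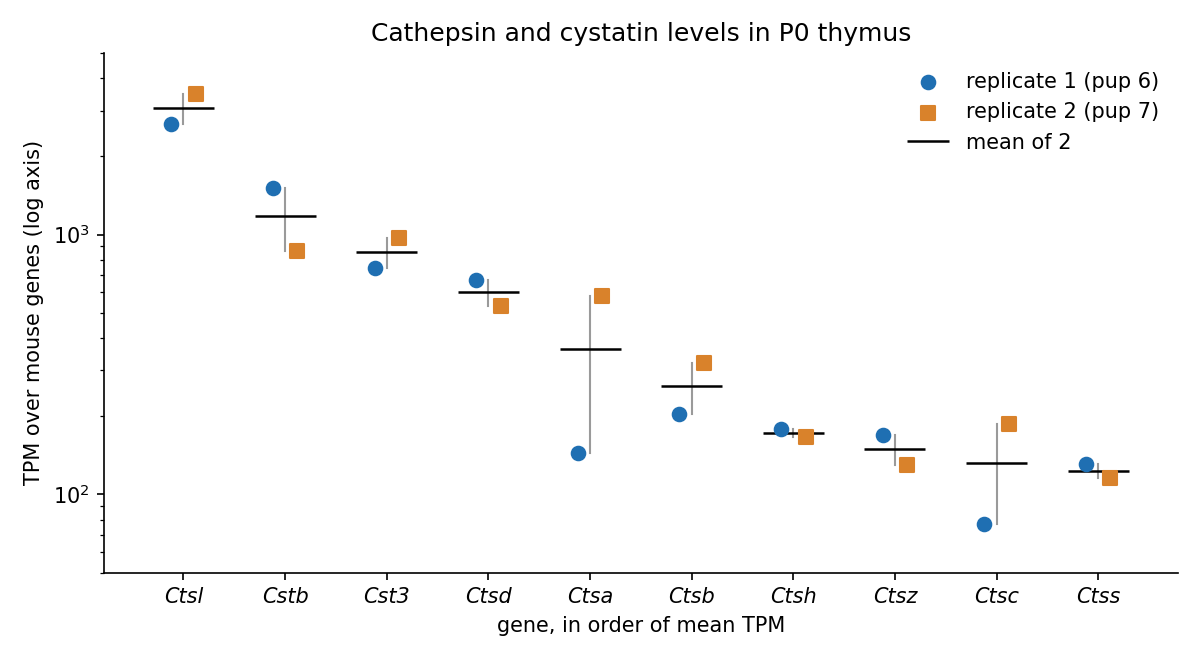
TPM over mouse genes (log axis) of the 8 cathepsins and 2 cystatins in the 2 libraries, in order of mean TPM. Circles are replicate 1 (pup 6), squares replicate 2 (pup 7), horizontal bars the mean of 2 and vertical lines the range. Ctsl lies highest in both pups, and Ctsa and Ctsc have the longest ranges.

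The remaining 5 cysteine cathepsins summed to 758 TPM in replicate 1 and 917 TPM in replicate 2. Ctsb, which cuts within proteins and also removes dipeptides from their carboxyl end (ENSMUSG00000021939, chromosome 14, 63122462 to 63145923, plus strand), had 19271 and 34283 counts, or 203 TPM in replicate 1 and 320 TPM in replicate 2 (262 ± 82.5). Ctsh, an aminopeptidase (ENSMUSG00000032359, chromosome 9, 90054152 to 90076089, plus strand), had 3408 and 3840 counts, or 178 and 166 TPM (172 ± 8.83). Ctsb was higher in replicate 2, and its range did not overlap that of Ctsh. Ctsz, a carboxypeptidase also called cathepsin X (ENSMUSG00000016256, chromosome 2, 174427493 to 174439039, minus strand), had 4627 and 4018 counts, or 169 and 130 TPM (149 ± 27.6). Ctsc, the dipeptidyl peptidase that activates the serine proteases of cytotoxic and neutrophil granules (ENSMUSG00000030560, chromosome 7, 88278085 to 88310888, plus strand), had 3832 and 10924 counts, or 77.1 TPM in replicate 1 and 186 TPM in replicate 2 (132 ± 77.1). Ctss, the endopeptidase of antigen-presenting cells (ENSMUSG00000038642, chromosome 3, 95526786 to 95556403, plus strand), had 3348 and 3359 counts, or 130 and 116 TPM (123 ± 10.4). The ranges of neighbours in the order Ctsh, Ctsz, Ctsc, Ctss overlapped, so the order of neighbours did not exceed the spread between the pups, whereas Ctsh was above Ctss in both pups without overlap. Read counting alone sets a narrow interval even for the lowest of these counts, 3236 to 3463 around the 3348 counts of Ctss in replicate 1 (95% exact Poisson), which covers counting error only.

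The aspartic and the serine cathepsin differed in how alike the pups were. Ctsd, the main lysosomal aspartic protease (ENSMUSG00000007891, chromosome 7, 142375911 to 142388038, minus strand), had 26347 and 23759 counts, or 671 TPM in replicate 1 and 529 TPM in replicate 2 (600 ± 101). Ctsa, a serine carboxypeptidase that also holds beta-galactosidase and neuraminidase in a stable complex (ENSMUSG00000017760, chromosome 2, 164832873 to 164841032, plus strand), had 5422 and 22818 counts, or 145 TPM in replicate 1 and 579 TPM in replicate 2 (362 ± 307). Ctsa was thus the eighth of the 10 genes in replicate 1 and the fourth in replicate 2. Of its partners, the beta-galactosidase gene Glb1 stood at 110 and 104 TPM, while the neuraminidase gene Neu1 had 4877 counts in replicate 1 and 0 in replicate 2. Pltp overlaps the end of Ctsa by 1515 bases on the opposite strand and had 14824 and 13468 counts. Neurl2 overlaps its start by 584 bases, also on the opposite strand, and had 0 and 594 counts. Whether the counting used strand is not given in the sources used here. Reads from these overlaps may therefore not be assigned to the right gene.

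The cystatins came next after Ctsl in the order by mean TPM. Cstb, the cystatin of the cytosol and nucleus (ENSMUSG00000005054, chromosome 10, 78425669 to 78427622, plus strand), had 15377 and 9956 counts, or 1505 TPM in replicate 1 and 862 TPM in replicate 2 (1184 ± 455). Cst3, the secreted cystatin C (ENSMUSG00000027447, chromosome 2, 148871722 to 148875692, minus strand), had 11580 and 17104 counts, or 745 TPM in replicate 1 and 973 TPM in replicate 2 (859 ± 162). Cstb was the higher of the pair in replicate 1 and Cst3 in replicate 2, and their ranges overlapped. Together they summed to 2250 and 1836 TPM (2043 ± 293). Set against the summed TPM of the 8 cathepsins, the cystatin sum was 0.532 in replicate 1 and 0.334 in replicate 2 (0.433 ± 0.140). Those 8 include the aspartic Ctsd and the serine Ctsa. Against the 6 cysteine cathepsins alone it was 0.658 in replicate 1 and 0.418 in replicate 2 (0.538 ± 0.170). Across the 10 genes, log2 TPM of the pups had a Pearson's r of 0.869 and a Spearman's rho of 0.770, a description over 10 genes from the same 2 libraries. In the order by mean TPM, the ranges of Ctsl and Cstb, of Cst3 and Ctsd and of Ctsb and Ctsh did not overlap, while those of the other neighbours did.

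Ctsa and Ctsc were the only members at least 2-fold apart between the pups, and both were higher in replicate 2. The log2 ratio of TPM + 1, replicate 1 over replicate 2, was -1.99 for Ctsa and -1.26 for Ctsc, the second being 2.42-fold in TPM. Those of the other 8 lay between -0.65 for Ctsb and 0.80 for Cstb. Cstb (0.80), Ctsz (0.38), Ctsd (0.34) and Ctss (0.17) were higher in replicate 1, and Ctsb (-0.65), Cst3 (-0.39) and Ctsl (-0.39) in replicate 2. Ctsh stood at 0.10, and its sign turned to -0.0011 on counts scaled by edgeR and -0.046 on counts scaled by DESeq2. With 1 library per pup these differences have no replicate check, and no test is given.

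Fewer of the 10 members than of mouse genes in general differed 2-fold between the pups. Among 9341 mouse genes averaging at least 100 counts, 67.7% were at least 2-fold apart, 29.7% with replicate 1 higher and 38% with replicate 2 higher, whereas 2 of the 10 members were. At 4-fold, 50.9% of those genes and none of the members were apart, with Ctsa just inside that limit. The median size of the log2 ratio was 0.39 for the members and 2.07 for the 9341 genes, and the median log2 ratio was -0.14 for the members and -0.17 for those genes. Every member averaged above 3000 counts, so genes of similar count are the closer setting, and against these the gap was small. At mean counts of 3000 to 10000, 44.4% of 2093 genes were 2-fold apart, beside Ctsc as 1 of 4 members. At 10000 to 30000 the share was 18.9% of 371 genes, beside Ctsa as 1 of 5 members. From 30000 it was 6.25% of 80 genes, and Ctsl, the 1 member there, was not 2-fold apart.

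**Figure D2:**
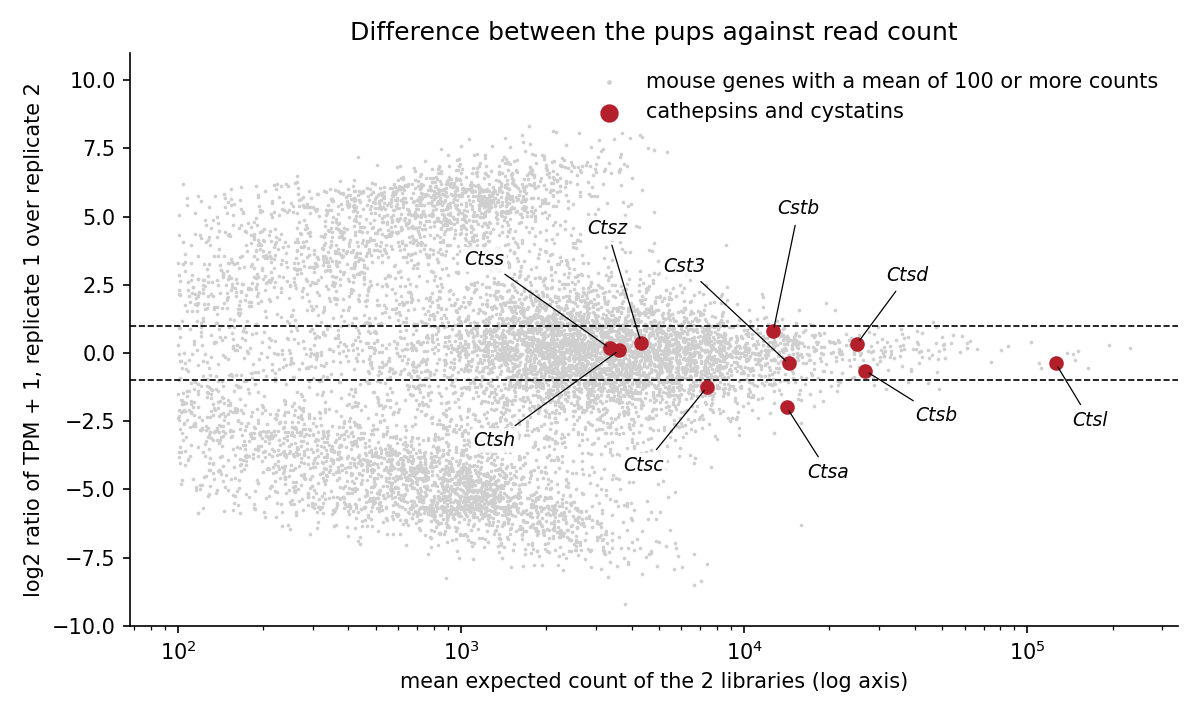
Log2 ratio of TPM + 1, replicate 1 over replicate 2, against the mean expected count (log axis). Grey points are the 9341 mouse genes averaging at least 100 counts, red points the cathepsins and cystatins, and dashed lines mark 2-fold. Ctsa (-1.99) and Ctsc (-1.26) lie below the lower line, and the spread of all genes narrows to the right.

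Transcripts of these genes fell into simple and mixed cases. The tables list 46 transcripts for the 10 genes, and the transcript with the most TPM was the same in both pups for all 10. Ctsb, Ctsl, Ctsz and Cstb are listed with 1 transcript each, which limits what can be said of their isoforms. Ctss-202 took all Ctss counts in both libraries, and the leading coding transcript of Cst3 took 99.9% of its TPM in replicate 1 and 99.98% in replicate 2. For Ctsd, the coding transcript Ctsd-202 held 55.4% of TPM in replicate 1 and 65.7% in replicate 2 (60.6% ± 7.28), and Ctsd-201 held 44.5% and 34.2%. The authors' posterior SD of the Ctsd-202 count was 359 and 334 reads, against 15429 and 16291 counts.

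Ctsc and Ctsh carried transcripts that depart from the full-length protein. Ctsc-201, the transcript that holds the active-site stretch shown above, took 94.5% of Ctsc TPM in replicate 1 and 77.6% in replicate 2. Ctsc-203, annotated as coding but without that stretch, took 5.54% and 21.9%. The share without it was higher in the pup with more Ctsc. For Ctsh, the leading transcript was Ctsh-202, annotated as a target of nonsense-mediated decay (the pathway that destroys messages with an early stop), at 53.0% of Ctsh TPM in replicate 1 and 65.1% in replicate 2 (59.0% ± 8.53). The coding transcripts Ctsh-208 and Ctsh-204 followed, Ctsh-208 at 27.5% and 7.88% and Ctsh-204 at 17.2% and 20.5%, while Ctsh-201, with the longest coding sequence, had 1.72% and 5.97%. The posterior SD of the Ctsh-201 count was 64.0 and 207 reads against 95.2 and 346 counts, so its share is poorly fixed. Transcripts holding the bases of the Ctsh active-site stretch made up 99.7% and 99.6% of its TPM, with Ctsh-202 among them. Transcripts annotated as coding held 46.5% of Ctsh TPM in replicate 1 and 34.4% in replicate 2.

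**Figure D3:**
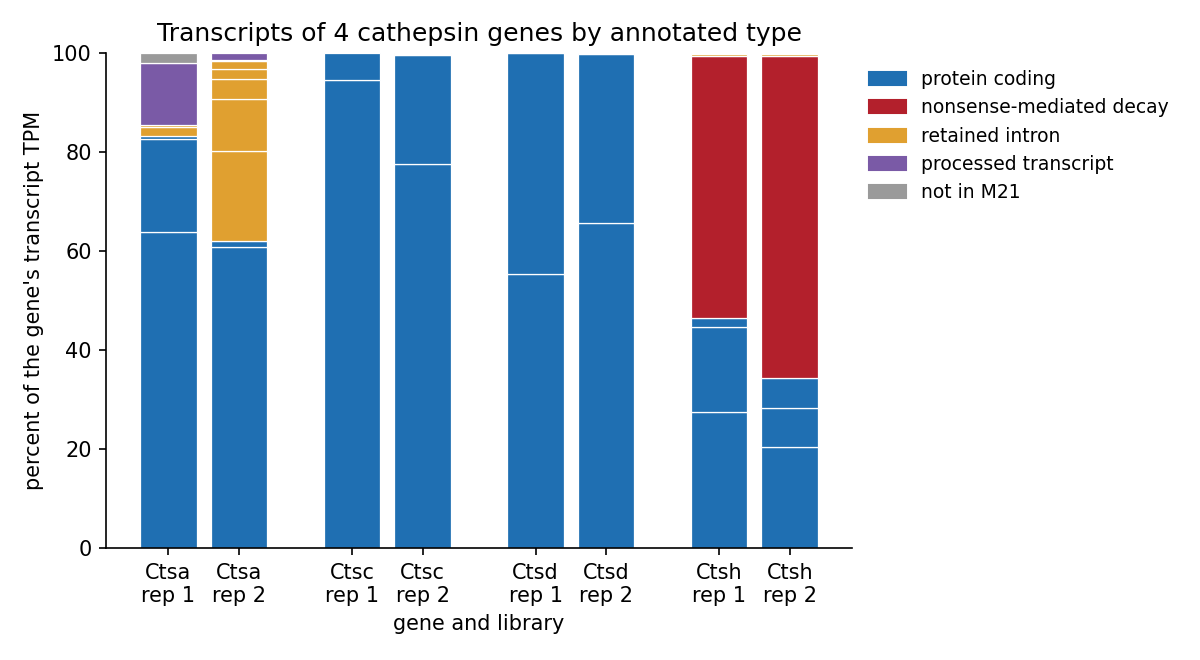
Percent of the gene's transcript TPM held by each transcript of Ctsa, Ctsc, Ctsd and Ctsh in the 2 libraries (rep 1 and rep 2), coloured by annotated type, with white lines between transcripts. The nonsense-mediated decay transcript is the largest piece of Ctsh in both, and retained-intron transcripts fill 36.6% of Ctsa in replicate 2 against 2.31% in replicate 1.

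Ctsa had the most transcripts, 17, of which 12 were read in at least 1 library. Ctsa-202, coding, led with 63.8% of TPM in replicate 1 and 60.8% in replicate 2. Retained-intron transcripts held 2.31% of Ctsa TPM in replicate 1 and 36.6% in replicate 2. In reads the shares were 0.495% and 10.6%, since these transcripts are short and weigh more in TPM. The largest of them in TPM was Ctsa-212, with 19.2 counts in replicate 1 and 827 in replicate 2. Counting coding transcripts alone, Ctsa stood at 120 TPM in replicate 1 and 359 TPM in replicate 2, so the difference between the pups was also present there.

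Annotated starts of transcription are shown for Ctsd and Ctsa, the members with transcripts read here whose annotated starts lie beside the letters CACGTG. That hexamer is the core of the element bound by TFEB, a regulator of lysosomal genes. RefSeq promoters on GRCm38.p6, 250 bases before to 50 after a start, matched 7 of the 10 members with 8 windows, and CACGTG, which reads the same on both strands, stood in 3 of them, those of Ctsd, Ctsa and Ctsl. It stood in 7.15% of all 32851 promoters of that length. The match is a description of letters and shows no binding. The 250 bases before the RefSeq start of Ctsd (chr7:142387828-142388077, minus strand) hold it at -245 and -98, in capitals. GENCODE places the start of Ctsd-202, the leading transcript, at base 142388038, between both matches, so the one at -98 lies after that start. Transcripts starting in that window carried 100% and 99.9% of Ctsd TPM.
Ctsd: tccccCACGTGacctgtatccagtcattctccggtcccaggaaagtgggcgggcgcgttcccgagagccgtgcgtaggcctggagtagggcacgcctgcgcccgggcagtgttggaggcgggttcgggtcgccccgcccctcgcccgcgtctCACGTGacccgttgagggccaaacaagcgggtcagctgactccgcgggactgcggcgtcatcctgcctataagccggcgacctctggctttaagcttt
Ctsa has a pair of RefSeq starts. The upstream window, without the hexamer, held the starts of 64.4% of Ctsa TPM in replicate 1 and 62.0% in replicate 2. The downstream window held those of 20.7% and 18.4%, from different transcripts in the pups. The coding Ctsa-210 held 18.8% and 0%, and the retained-intron Ctsa-212 held 1.92% and 18.4%. These starts are annotated positions and were not measured in the libraries. That window carries the hexamer at -12 and 5 (chr2:164833757-164833786, plus strand).
Ctsa: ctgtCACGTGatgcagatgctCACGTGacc
In the Ctsl window the hexamer lay at -236, and the 1 Ctsl transcript of the tables did not start within the window.

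Few other members of either family were read in both pups, as was also so of mouse genes in general. Of 37 further cathepsin and cystatin genes in the tables, 5 were read in both pups, 5 in 1 pup and 27 in neither. Of all 43346 mouse genes, 8248 were read in both, 5543 in 1 and 29555 in neither. By read counting alone, 0 counts allow up to 3, or 0.115 and 0.0940 counts per 1000000 mouse counts in replicates 1 and 2. This covers counting error only, and of genes averaging 1000 to 3000 counts, 29.5% had 3 or fewer in 1 library. Of the 37 genes, only Ctse and Ctso reached 10 counts in both pups. Ctse, an aspartic cathepsin of the endosome, had 3695 and 267 counts, or 89.2 and 5.70 TPM, and Ctso, a cysteine cathepsin, had 1928 and 2352 counts. Ctsw, known from cytotoxic lymphocytes, had 188 and 0 counts, and Cst7, a cystatin that inhibits cathepsin C, had 123 and 1. The osteoclast cathepsin Ctsk had 0 and 1 counts, the neutrophil protease Ctsg had 0 in both, and the 9 listed genes of the cathepsin cluster on chromosome 13, several of them known from placenta, had 0 in both as well.

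Genes that make the lysosome work were measured beside them, from lists of 35 hydrolases and activators, 23 membrane and sorting genes, 16 subunits of the V-ATPase proton pump and 15 regulators. Of these 89 genes, 65 were read in both libraries, 12 in 1 and 12 in neither. Among the 72 averaging at least 100 counts, 18 were at least 2-fold higher in replicate 1 and 22 in replicate 2 (55.6% in all, against 67.7% of all such genes). The 2 shares were not matched on read count. Of mouse genes, 88.1% were 2-fold apart at mean counts of 100 to 1000 and 18.9% at 10000 to 30000. All 16 V-ATPase subunits were read in both pups and summed to 3233 and 2724 TPM, led by Atp6v1f at 779 and 386 TPM and Atp6v0e at 638 and 413 TPM. Laptm5, a lysosomal membrane protein of blood cells, was the highest lysosomal gene outside the cathepsins and cystatins at 940 and 768 TPM, and the lysosomal membrane gene Lamp2 stood at 337 and 430 TPM. M6pr, a mannose 6-phosphate receptor that carries cathepsins to the lysosome, stood at 73.7 and 316 TPM, and was the higher in replicate 2. The hydrolases summed to 2392 and 2577 TPM, the membrane and sorting genes to 2243 and 2631 TPM and the regulators to 1044 and 876 TPM. Of all mouse genes, 8248 were read in both pups and 5543 in 1 pup alone, and 12 of the 89 lysosomal genes were among the second. The arylsulfatase gene Arsb had 0 counts in replicate 1 and 1043 in replicate 2, and Gnptg, a subunit of the enzyme that makes the mannose 6-phosphate tag, had 0 and 2292. Tmem192, of the lysosomal membrane, had 736 and 0.

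**Figure D4:**
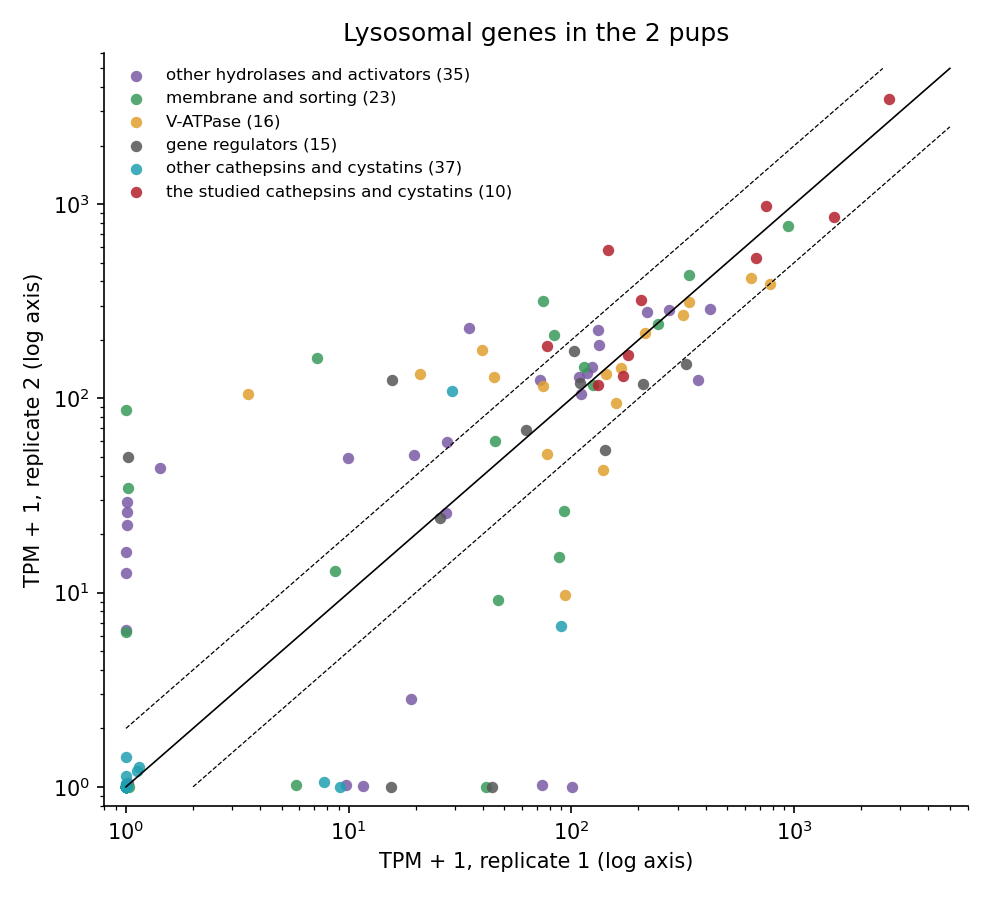
TPM + 1 in replicate 1 against TPM + 1 in replicate 2 (both log axes) for the cathepsins and cystatins, the 37 other members of both families and 89 other lysosomal genes, coloured by list with the number of genes. The solid line marks equal values and the dashed lines 2-fold. Points along a side at a TPM + 1 of about 1 are genes at or near 0 in that pup, those at or near 0 in both lie in the corner, and none of the 10 cathepsins and cystatins is among them.

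Of the 35 hydrolases and activators, those of highest mean TPM are named first, so their levels do not describe the whole list. Of that list, 25 genes were read in both libraries and 6 in neither. Lgmn, the asparaginyl protease that matures several cathepsins, stood at 131 and 223 TPM, and Ppt1, which removes fatty acids from proteins, at 273 and 284 TPM. Prss16, the thymus-specific serine protease of cortical epithelium, stood at 419 and 287 TPM. Psap, the precursor of the saposins that cathepsin D cleaves, stood at 216 and 277 TPM, and Grn, the progranulin gene, at 369 and 123 TPM. By mean TPM the highest regulator was Lamtor4, part of the scaffold that holds nutrient signalling at the lysosome, at 326 and 149 TPM, although Lamtor2 of the same scaffold, at 102 and 175 TPM, was above it in replicate 2. Tfeb had 0 counts in both libraries, and Tfe3 had 1 and 3663. Mtor and Rptor are parts of the kinase complex that holds both factors in check. They had 806 and 1786 counts in replicate 1 and were at 0 in replicate 2. Of genes averaging 100 to 1000 counts, as Mtor and Rptor did, 64.5% had 3 or fewer in 1 library. At 1000 to 3000 counts, where Tfe3 lay, the share was 29.5%. A link between these genes was not tested. The 11 genes of the class II pathway summed to 4745 and 6016 TPM. Cd74, the invariant chain that cathepsins L and S trim, stood at 1667 and 1505 TPM, and Ifi30, the reductase of the class II pathway, at 183 and 34.2 TPM.

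Marker genes of the cell types known for these proteases moved unlike one another. The 12 thymic epithelium markers summed to 3053 TPM in replicate 1 and 3084 TPM in replicate 2, with 10 of 12 read in both. These near-equal sums hide genes that went opposite ways. At least 2-fold apart were 5 of the 12, with 2 higher in replicate 1 and 3 in replicate 2 (41.7%, against 67.7% of all genes averaging at least 100 counts). Those shares were likewise not matched on read count. Foxn1 had 0 and 1129 counts, and Dll4 had 2471 and 0. The 12 macrophage and dendritic markers summed to 448 TPM in replicate 1 and 702 TPM in replicate 2, with 6 of 12 read in both, and Cx3cr1, Itgax and Siglech had 0 counts in both libraries. Within that list the pups differed gene by gene, with Cd68 at 82.3 and 212 TPM, Lyz2 at 1.81 and 96.6 TPM, and Adgre1 at 40.9 and 0 TPM. Neutrophil markers summed to 0.332 TPM in replicate 1 and 36.4 TPM in replicate 2, with 3 of 6 read in both, and S100a8 supplied 34.1 TPM of the second sum. Erythroid markers, 6 of 6 read in both, summed to 3527 and 9132 TPM, and B cell markers, 1 of 6 read in both, to 327 and 540 TPM with Pax5 at 0 in both libraries. Mesenchyme markers, 7 of 8, stood at 1570 and 1335 TPM, endothelium markers, 3 of 6, at 290 and 121 TPM, and thymocyte markers at 5716 and 5479 TPM. Ctsa and Ctsc were higher in the pup with the higher macrophage, neutrophil, erythroid and B cell sums, whereas Ctss was not, and the part of these cells in the cathepsin levels was not tested. In whole tissue, fewer cells of a type and less RNA per cell cannot be told apart.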

How the data were processed

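Per the labels, 2 thymus libraries of 1 group were measured by a method named single cell RNA-seq, with spike-ins. The deposited tables give expected counts and TPM per gene and transcript, each with a posterior mean version, and each transcript's percent of its gene's TPM. Alignment was to mm10 per the labels, with annotation M4 in the deposited notes. Which aligner and counting program were used is not given in the sources used here. Column names match RSEM output, per the file headers. Mouse gene IDs were matched without version to GENCODE M21 on GRCm38 (mm10), 42462 of 43346. TPM was rescaled to 1000000 over mouse genes, and ratios used a pseudocount of 1 TPM. Without a contrast between groups no test was possible, and no p-value is given. The SD over 2 pups may be partly technical. Ratio calls were tested on simulated data with counting error only, which lack the wider spread between these pups and so cannot give the error of calls here. The members and lists were chosen with earlier results of these data known. All 10 members are named. Other lists could be named by their 5 genes of highest mean TPM, or by genes with at least 10 counts in 1 library and none in its partner. Glb1, Tfeb, Tfe3, Ctsg, Cx3cr1, Itgax, Siglech, Pax5, Pltp, Neurl2 and the minor transcripts lie outside that rule and were chosen after their values were seen. Expected counts were rounded for edgeR 4.0.16 and DESeq2 1.42.0 scaling, used only as alternatives. Posterior means, TPM scaling, pseudocounts, folds, detection levels and thinning were varied as well.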

Additional observations from a re-analysis of the deposited data

How the results depend on the processing

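Cathepsin and cystatin sums moved by less than the SD between the pups under posterior mean TPM, TPM as deposited and TPM without mitochondrial genes. Their ratio cannot change under the last pair of rescalings, and was 0.433 under posterior mean TPM. With 1 library left out, the cathepsin sum ranged from 4233 to 5498 TPM, the cystatin sum from 1836 to 2250 TPM and their ratio from 0.334 to 0.532. Ctsa and Ctsc were the 2 members at least 2-fold apart under every scaling and pseudocount tried. At 1.5-fold there were 4 members, with Cstb and Ctsb added, and at 4-fold 0, against 78.9% and 50.9% of the 9341 genes, since a higher threshold passes fewer. The members' median log2 ratio was -0.24 on counts scaled by DESeq2 size factors, where that of all genes was -0.25. The log2 ratio of Ctsh reversed to -0.0011 with edgeR TMM and -0.046 with DESeq2, and none of the other 9 members changed sign in the 7 alternatives. At 10 or more counts, 12 of 47 family genes were read in both libraries in place of 15, and 55 of 89 lysosomal genes in place of 65. No paired analysis was possible because the labels give 1 group.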

Other observations

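Ctso, a cysteine cathepsin outside the 10 genes, had similar counts in the pups and unlike TPM. It had 1928 counts in replicate 1 and 2352 in replicate 2, but 28.0 and 108 TPM. In replicate 1 all of its TPM lay on the coding transcript Ctso-201, of 3468 bases, and in replicate 2 98.3% lay on the processed transcript Ctso-202, of 1048 bases. With 1 library per pup the change of transcript has no replicate check.

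The annotation release moves small parts of 2 members. A transcript that the tables count under Ctsd, with 0 and 7.46 counts, belongs to the gene Gm49369 in M21, and a transcript under Ctsa with 210 and 0 counts is not in M21.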
